A study of Mus musculus with 6 samples.

Results

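B and T lymphocytes recognise antigen through receptors whose genes are assembled by V(D)J recombination, and mice with the scid defect cannot complete that assembly. Levels of 9 genes were followed in the lungs of SCID mice. They were Prkdc, the gene known to be altered in scid mice, the CD3 chain genes Cd3d, Cd3e and Cd3g, the co-receptor genes Cd4 and Cd8a, the B cell receptor partner genes Cd79a and Cd79b, and Ms4a1, which encodes CD20. They were chosen by gene symbol and all 9 were found among the 24054 gene rows of the deposited table.

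RNA was sequenced from lungs of 6 female SCID mice in 2 groups of 3. The Tsc1-null EV mice had received, by tail vein, labelled CD9+CD63+CD81+ extracellular vesicles (EVs) from E15.5 mouse embryo neural progenitors lacking Tsc1, a gene whose product restrains the growth kinase mTORC1. The WT EV mice had received EVs of the same kind from wild type progenitors. Both groups were SCID and both were given 500000 rat ELT3 cells, a line used to model lymphangioleiomyomatosis, 48 h after the EVs, with lungs taken 72 h after the cells. No source used here gives the mice's age, their background strain or the name of the scid allele. The Tsc1 genotype is that of the cells the EVs came from and not of the mice. Nothing in the labels says whether the samples were handled on separate days. Lungs of mice with intact lymphocytes were not analysed here, so the levels below describe what was present and not how much was lost.

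Prkdc encodes the catalytic subunit of DNA-dependent protein kinase, which takes part in joining broken DNA ends and is needed to complete V(D)J recombination. CD3 chains carry the signal of the T cell receptor, and CD4 and CD8 bind MHC molecules beside it. CD79A and CD79B carry the signal of the B cell receptor, and CD20 is a membrane protein of B cells. In mice, CD4 and CD8A are also found on some dendritic cells, so neither gene marks T cells alone.

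The 5 signalling chains are known to share the immunoreceptor tyrosine-based activation motif (ITAM), on which the receptor's kinases act. Finding it in genes picked as CD3 and CD79 chains was fixed in advance, so the counts below are a description and not a test. The motif was read as a tyrosine with leucine or isoleucine at the third residue after it, and the same pattern again after 6 to 8 residues. Of 21378 coding genes of the annotation 2.90% held this pattern, and of the 9 genes it was found in 5, in each case with 7 residues between its first and second part. It was not found in Prkdc, Cd4, Cd8a or Ms4a1. The coding stretches are shown to let the chains be compared, with the codons of both tyrosines and of both leucines or isoleucines in capitals. In GRCm38, Cd3g (chr9:44969572-44980431, minus strand), Cd3d (chr9:44981786-44987339, plus strand) and Cd3e (chr9:44998740-45009627, minus strand) lie side by side. Cd79a lies at chr7:24897381-24902197 on the plus strand and Cd79b at chr11:106311341-106314762 on the minus strand. Of the genes without the pattern, Prkdc lies at chr16:15637866-15842235 (plus strand), Cd4 at chr6:124864692-124888221 (minus strand), Cd8a at chr6:71373427-71379173 (plus strand) and Ms4a1 at chr19:11249675-11266241 (minus strand), and all 9 are annotated as protein-coding. The stretches come from the GENCODE M21 transcripts.
Cd3d: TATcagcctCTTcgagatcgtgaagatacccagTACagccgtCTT
Cd3e: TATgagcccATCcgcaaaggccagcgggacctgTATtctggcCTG
Cd3g: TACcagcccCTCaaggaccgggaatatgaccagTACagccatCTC
Cd79a: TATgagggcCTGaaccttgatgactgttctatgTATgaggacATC
Cd79b: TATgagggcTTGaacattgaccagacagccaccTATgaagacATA

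The libraries held 5101413 to 9358820 reads assigned to genes, and levels are given as TMM-normalized counts per 1000000 reads (CPM), in which 1 read stood for 0.108 to 0.2005 CPM. Tsc1-null EV replicate 1 and WT EV replicate 2 stood apart, with median correlations to the other libraries of 0.942 and 0.963 against 0.980 to 0.982 in the other 4. Tsc1-null EV replicate 1 was also the shallowest library. Lung markers were high in every library, with Sftpc, the surfactant protein C gene, at 13094 to 29628 CPM in Tsc1-null EV lungs and 17290 to 22064 CPM in WT EV lungs. How many of the reads came from the rat cells was not tested. In bulk lung, fewer cells of a type and less RNA per cell cannot be told apart.

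Prkdc RNA was present in every lung. It stood at 9.22, 9.92 and 11.7 CPM in Tsc1-null EV lungs, against 5.85, 15.1 and 13.1 CPM in WT EV lungs. The lowest and the highest library were both WT EV, and the Tsc1-null EV values lay between them. The means were 10.3 ± 1.28 CPM in Tsc1-null EV and 11.4 ± 4.88 CPM in WT EV lungs (SD, n = 3 each), a log2 fold of -0.04 ± 0.32 (SE), which did not pass (limma adjusted p = 0.983). The sign was not stable, and the log2 fold was 0.26 without both libraries that stood apart.

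Prkdc belongs to a list of 15 end joining and V(D)J recombination genes. The recombinase genes Rag1 and Rag2, which cut the DNA, had 0 reads in all 6 libraries. With a floor of 3 reads for a count of 0, the 46419839 reads in all allow up to 0.0646 reads per 1000000, counting error only. Dntt, which adds untemplated bases at the joint, had 8 reads. Of the 12 genes with enough signal to test, 4 had a log2 fold above 0, the median was -0.04, against -0.02 over all 14159 genes tested, and 0 passed. Xrcc5, which encodes the Ku80 subunit that loads the kinase on DNA ends, stood at 33.9, 35.2 and 33.4 CPM in Tsc1-null EV lungs, against 26.5, 17.9 and 26.9 CPM in WT EV lungs. Its groups did not overlap, but it did not pass (log2 fold 0.53 ± 0.19, limma adjusted p = 0.721). Xrcc4, a scaffold of the ligase step, had groups that did not overlap either, at 13.6 ± 0.699 CPM in Tsc1-null EV and 10.2 ± 2.01 CPM in WT EV lungs (SD, n = 3 each), with the same limma adjusted p of 0.721. A share of 6.86% of the genes in the fit had no overlap and a higher Tsc1-null EV level.

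The CD3 chains were close to the limit of detection. Cd3d, the delta chain, stood at 2.41, 0.431 and 0.110 CPM in Tsc1-null EV lungs, against 0.366, 1.03 and 0.370 CPM in WT EV lungs. The highest value, in Tsc1-null EV replicate 1, came from 12 of the gene's 30 reads, and the lowest, in replicate 3 of the same group, from 1 read. Cd3e, the epsilon chain, stood at 0.2005, 0.970 and 0.221 CPM in Tsc1-null EV lungs, against 0.366, 0.588 and 0.123 CPM in WT EV lungs, from 20 reads in all. Cd3g, the gamma chain, stood at 1.40, 0.323 and 0.994 CPM in Tsc1-null EV lungs, against 1.10, 1.03 and 1.60 CPM in WT EV lungs, from 48 reads. No library was high for all 3 chains: Tsc1-null EV replicate 1 was highest for Cd3d, Tsc1-null EV replicate 2 for Cd3e and WT EV replicate 3 for Cd3g.

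Summed over the 3 chains, 48 reads were found in Tsc1-null EV libraries and 50 in WT EV libraries. This is 2.04 reads per 1000000 (exact 95% Poisson interval 1.503 to 2.702) in Tsc1-null EV lungs and 2.19 (1.62 to 2.88) in WT EV lungs, and such intervals cover counting error only. The intervals overlapped over most of their width. Cd3e shares 6.16% of its 50-base words with the antisense gene Gm48719, and reads of the 2 genes cannot be told apart without strand. Cd3d shared 0.301% of its words with other genes and Cd3g 0%.

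**Figure D1:**
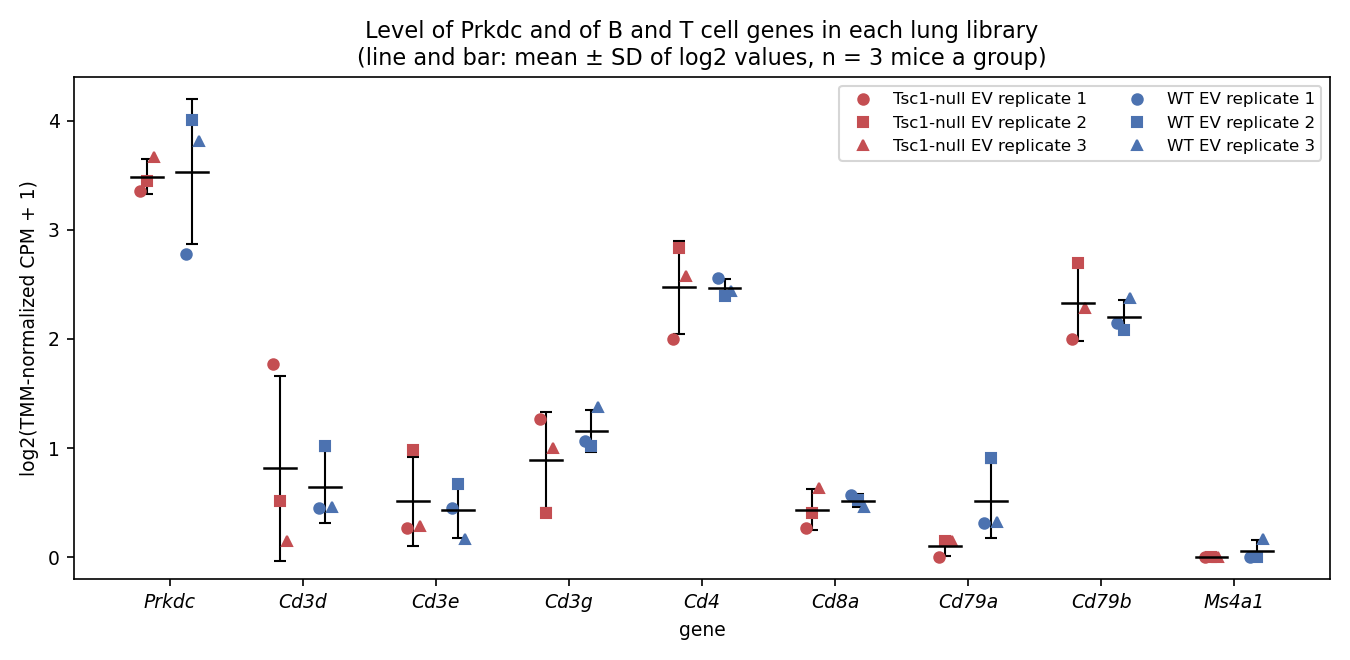
Log2 of TMM-normalized CPM + 1 (vertical axis) of each of the 9 genes in every library, with Tsc1-null EV lungs in red and WT EV lungs in blue and a marker shape for each replicate number. Lines and bars are the mean and SD of the log2 values of 3 mice. Prkdc, Cd4 and Cd79b stand above the other 6 genes in all 6 libraries, and the groups overlap for every gene except Cd79a.

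Cd4, the co-receptor of helper T cells, was measured in every lung, and Cd8a, that of cytotoxic T cells, stood near the floor. Cd4 stood at 3.01, 6.15 and 4.97 CPM in Tsc1-null EV lungs, against 4.88, 4.26 and 4.44 CPM in WT EV lungs. Its lowest and highest values were both in Tsc1-null EV lungs, around a narrow range in WT EV lungs. Cd8a stood at 0.2005, 0.323 and 0.552 CPM in Tsc1-null EV lungs, against 0.488, 0.441 and 0.370 CPM in WT EV lungs, from 1 to 5 reads a library. Cd8b1, the partner chain of CD8A on T cells, had 9 reads over the 6 libraries. Per kb of exon, Cd4 was above Cd8a in 6 of 6 libraries, at 1.15 ± 0.255 against 0.109 ± 0.0346 CPM per kb (SD, n = 6).

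The 2 CD79 genes, whose products work only as a pair, stood far apart. Cd79b was at 3.01, 5.50 and 3.87 CPM in Tsc1-null EV lungs, against 3.42, 3.23 and 4.20 CPM in WT EV lungs. Tsc1-null EV replicate 2 was the highest and replicate 1 of the same group the lowest, so the groups overlapped. Cd79a was at 0, 0.108 and 0.110 CPM in Tsc1-null EV lungs, against 0.244, 0.882 and 0.247 CPM in WT EV lungs. Per kb, Cd79b stood at 2.70 ± 0.634 and Cd79a at 0.182 ± 0.217 CPM per kb (SD, n = 6), a 14.9-fold ratio of means, and Cd79b was higher in 6 of 6 libraries. Cd79b has no overlapping gene in the annotation and shares 0% of its words with other genes, and Cd79a shares 8.31%. Ms4a1 was at 0 CPM in all 3 Tsc1-null EV lungs, against 0, 0 and 0.123 CPM in WT EV lungs, which is 1 read among 46419839 (exact 95% Poisson interval 0.0253 to 5.57 reads).

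Cd79a was the only one of the 9 genes whose groups did not overlap. Its reads were 0, 1 and 1 in Tsc1-null EV libraries and 2, 6 and 2 in WT EV libraries, so every difference rests on a few reads. The depth-scaled read ratio was 0.194 (exact 95% counting interval 0.0207 to 0.911). This interval pools the reads of each group, so it covers counting error only and leaves out the spread between mice. In limma without a filter on low genes the log2 fold was -0.42 ± 0.17 (SE) and did not pass (adjusted p = 0.778). The log2 fold was -0.22 without WT EV replicate 2, which stood apart and held 6 of the 12 reads. Of the 18443 genes in that fit, 5.75% were lower in all 3 Tsc1-null EV lungs and 5.95% higher.

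Levels can be set against each other only per length, here as CPM per kb of all exons of a gene joined. The order was Cd79b at 2.70, Cd4 at 1.15, Prkdc at 0.821, Cd3d at 0.433, Cd3g at 0.329, Cd79a at 0.182, Cd8a at 0.109, Cd3e at 0.101 and Ms4a1 at 0.00332 CPM per kb. Prkdc falls from the first place in CPM because its exons span 13187 bases, against 1431 for Cd79b. Cd79b was above Cd4 in 6 of 6 libraries, and Cd4 above Prkdc in 5 of 6. The order of Cd3d and Cd3g was split 3 to 3 over the libraries, that of Cd79a and Cd8a 3 to 3, and that of Cd8a and Cd3e 4 to 2, so these neighbours did not differ beyond their spread. Cd4 stood above Cd79b when the mean transcript length was used instead, at 3.52 against 2.95 CPM per kb. Among 18186 genes with a length and a level above 0, whose median was 3.05 CPM per kb, Cd79b stood at percentile 47.7, Prkdc at 31.5, Cd3e at 15.2 and Ms4a1 at 0.308.

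**Figure D2:**
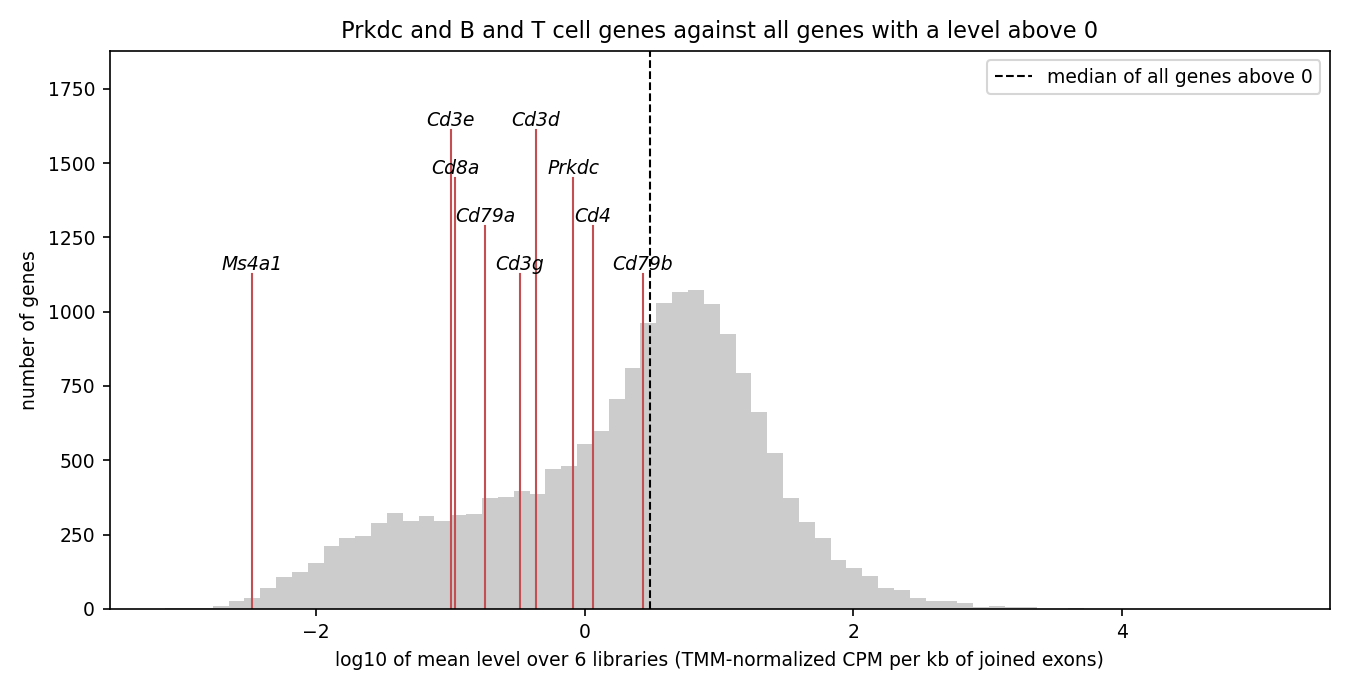
Number of genes (vertical axis) by log10 of the mean level over 6 libraries in TMM-normalized CPM per kb of joined exons (horizontal axis), with the median of all genes above 0 as a dashed line and red lines at Prkdc and the B and T cell genes. All 9 lie below the median of 3.05 CPM per kb, Cd79b closest to it and Ms4a1 in the lowest tail.

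Other genes of the T cell receptor list gave a mixed picture. Of its 11 genes 7 were measured, and the receptor constant genes Trac, Trbc1, Trbc2 and Trdc were not analysed here. Cd247, the zeta chain, which natural killer cells also use, stood at 0.601, 1.83 and 2.65 CPM in Tsc1-null EV lungs, against 3.42, 1.91 and 2.59 CPM in WT EV lungs. It was above Cd3e per kb in 6 of 6 libraries, although its exons overlap those of Gm16565 and Pou2f1. Of the 3 genes of this list with enough signal to test (Cd3g, Cd247 and Cd4), 0 passed and the median log2 fold was -0.27.

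Of 25 other T lineage genes, 9 had 20 reads or fewer over the 6 libraries and the other 16 had reads in all 6. Cd6, Ctla4, Cd40lg and Trat1 had 0 reads, Cd5 and Themis 2 each, Foxp3, the regulatory T cell factor, 8, Ubash3a 10 and the co-stimulatory receptor gene Cd28 18. The adaptor genes Lat and Skap1 had 91 and 99 reads, the co-stimulatory receptor gene Icos 78, and the kinase genes Lck and Zap70, which act below the T cell receptor and are also used by natural killer cells, 261 and 307. The highest mean was that of Thy1, a surface protein also made by fibroblasts, at 17.6 ± 4.47 CPM in Tsc1-null EV and 14.5 ± 5.20 CPM in WT EV lungs (SD, n = 3 each). Tcf7, a transcription factor of T and innate lymphoid cells, averaged 11.2 ± 6.23 CPM in Tsc1-null EV and 16.1 ± 2.82 CPM in WT EV lungs. Cd2, an adhesion receptor of T and natural killer cells, stood at 3.81, 8.84 and 10.6 CPM in Tsc1-null EV lungs, against 15.2, 6.03 and 6.91 CPM in WT EV lungs. Il7r, the interleukin 7 receptor, averaged 7.99 ± 0.926 CPM in Tsc1-null EV and 7.77 ± 0.862 CPM in WT EV lungs. Of the 16 genes tested 7 had a log2 fold above 0, the median was -0.22 and 0 passed. With other settings or 1 library left out, this median ranged from -0.28 with a pseudocount of 0.1 to 0.05 with a filter at 5 CPM. It was -0.04 without Tsc1-null EV replicate 1.

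Cd27 and Lef1 were lower in all 3 Tsc1-null EV lungs, without passing. Cd27, a co-stimulatory receptor, stood at 1.203, 2.48 and 2.43 CPM in Tsc1-null EV lungs, against 3.90, 3.38 and 3.95 CPM in WT EV lungs (log2 fold -0.67 ± 0.26, limma adjusted p = 0.721). Lef1, a transcription factor related to Tcf7, averaged 4.99 ± 0.183 CPM in Tsc1-null EV and 6.95 ± 0.952 CPM in WT EV lungs, with the same limma adjusted p of 0.721. Of all genes tested 6.22% were lower in all 3.

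Natural killer cells, which need no V(D)J recombination, share several of these genes. Of their 15 markers only Klra8 had 0 reads. Gzma, the granule enzyme granzyme A, averaged 29.2 ± 7.93 CPM in Tsc1-null EV and 32.9 ± 9.95 CPM in WT EV lungs, and Ncr1, the receptor NKp46, averaged 5.75 ± 1.88 CPM in Tsc1-null EV and 9.84 ± 3.35 CPM in WT EV lungs. The summed marker level was 53.1, 83.6 and 87.4 CPM in Tsc1-null EV lungs, against 126.0, 65.0 and 80.3 CPM in WT EV lungs. The summed level of the other T lineage genes was 75.0, 91.2 and 94.6 CPM in Tsc1-null EV lungs, against 109.4, 75.7 and 96.6 CPM in WT EV lungs. WT EV replicate 1 was highest and Tsc1-null EV replicate 1 lowest in both sums. Tsc1-null EV replicate 1 was also lowest in the dendritic, B cell receptor and pan-leukocyte and myeloid sums. It was highest in the pro-B and pre-B and lung tissue sums. In this library Cd81 made up 130.3 of the 134.9 CPM of the B cell receptor sum, and Lyz2 1510 of the 1820 CPM of the myeloid sum. Vpreb3 made up 55.3 of the 65.0 CPM of the pro-B and pre-B sum, and Scgb1a1 91441 of the 112933 CPM of the lung tissue sum. The kinase gene Txk is in both the natural killer and the T lineage list. The part of natural killer cells in the T lineage values was not tested. The median log2 fold of the 14 tested markers was -0.29, with 2 above 0 and 0 called. Of all 14159 genes tested 6698 were above 0. With other settings or 1 library left out, the marker median ranged from -0.45 without WT EV replicate 2 to -0.02 without WT EV replicate 1. Klre1, a lectin-like receptor, was lower in all 3 Tsc1-null EV lungs, at 0.831 ± 0.551 CPM, against 1.76 ± 0.380 CPM in WT EV lungs. It did not pass (limma adjusted p = 0.721), and its value in Tsc1-null EV replicate 1 came from 1 read. A share of 6.22% of all genes tested was lower in all 3 Tsc1-null EV lungs.

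Of the 12 genes of the B cell receptor list 7 were measured, and Ighm, Ighd, Igkc, Iglc1 and Iglc2 were not analysed here. Cr2, a complement receptor of B cells, had 9 reads over the 6 libraries. Cd22, an inhibitory receptor of B cells, had 104 reads and stood at 0.601, 2.80 and 3.42 CPM in Tsc1-null EV lungs, against 2.32, 2.50 and 0.987 CPM in WT EV lungs, and an antisense gene overlaps it. Cd81, a tetraspanin made by most cells and the same protein that marked the EVs, stood at 271.9 ± 122.9 CPM in Tsc1-null EV and 280.6 ± 27.6 CPM in WT EV lungs. Of the 3 tested (Cd79b, Cd22 and Cd81), 0 passed and the median log2 fold was 0.07.

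Of 20 other B lineage genes, 8 had 20 reads or fewer over the 6 libraries and the other 12 had reads in all 6. Pax5, which sets B cell identity, had 0 reads, Blk 2, Faim3 (the gene now named Fcmr) 2, Tnfrsf13c, the receptor for the B cell survival factor BAFF, 4 and Pou2af1 12. Fcrla, an Fc receptor-like gene of B cells, had 62 reads, and Cd72, an inhibitory receptor of B cells, averaged 4.56 ± 2.47 CPM in Tsc1-null EV and 2.70 ± 0.440 CPM in WT EV lungs (SD, n = 3 each). Ebf1, a factor of B cells and of stromal cells, averaged 22.4 ± 6.24 CPM in Tsc1-null EV and 21.5 ± 2.102 CPM in WT EV lungs. Blnk, an adaptor of B cells and macrophages, averaged 7.42 ± 1.94 CPM in Tsc1-null EV and 5.69 ± 1.15 CPM in WT EV lungs. Cd40, a receptor of B cells and other antigen-presenting cells, averaged 7.96 ± 2.56 CPM in Tsc1-null EV and 10.97 ± 1.12 CPM in WT EV lungs, without overlap (log2 fold -0.46 ± 0.25, limma adjusted p = 0.741). Of the 9 genes tested 6 had a log2 fold above 0, the median was 0.18 and 0 passed. Spib, a transcription factor of B cells and plasmacytoid dendritic cells, also had groups that did not overlap, at 2.27 ± 0.231 CPM in Tsc1-null EV and 2.77 ± 0.201 CPM in WT EV lungs. It did not pass either (limma adjusted p = 0.870). Cd40 and Spib were lower in all 3 Tsc1-null EV lungs, as were 6.22% of all genes tested.

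Of the 8 pro-B and pre-B genes, Rag1, Rag2 and Vpreb2 had 0 reads, Igll1 had 4, Dntt 8 and Vpreb1 20. The other 2 genes of the list were Il7r, given above, and Vpreb3. Vpreb3, known from B cell precursors, stood at 55.3, 33.2 and 28.7 CPM in Tsc1-null EV lungs, against 35.2, 24.8 and 36.6 CPM in WT EV lungs. It was highest in Tsc1-null EV replicate 1, which stood apart, and the groups overlapped (log2 fold 0.23 ± 0.26, limma adjusted p = 0.876). At 41.5 CPM per kb it was far above every one of the 9 genes, and its exons overlap no other annotated gene. Which cells of the lung made Vpreb3 RNA was not tested, and its level is no measure of B cell precursors.

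Of 12 plasma cell genes 7 were measured, and Tnfrsf17, a survival receptor of plasma cells, had 4 reads and Igj, the joining chain of secreted antibodies, 7. Sdc1, which epithelial cells also express, averaged 300.9 ± 24.96 CPM in Tsc1-null EV and 212.0 ± 38.3 CPM in WT EV lungs, without overlap. Prdm1, a transcription factor of plasma cells and other cells, was lower in all 3, at 6.21, 8.52 and 12.7 CPM in Tsc1-null EV lungs, against 15.49, 15.3 and 15.3 CPM in WT EV lungs. Both had a limma adjusted p of 0.721, and 13.1% of all genes in the fit had no overlap in one direction or the other. Of the 4 genes tested 0 passed, with a median log2 fold of -0.25.

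**Figure D3:**
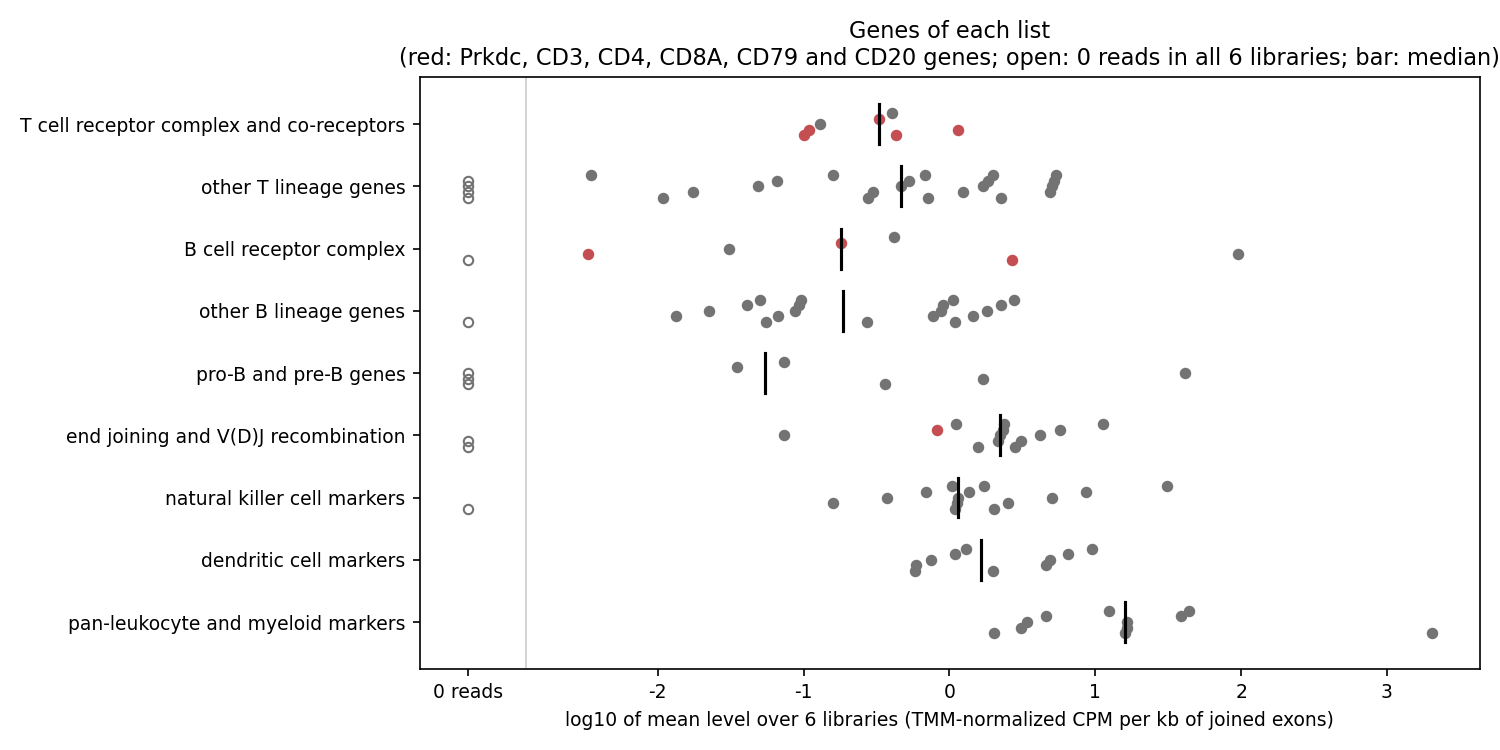
Log10 of the mean level over 6 libraries in TMM-normalized CPM per kb of joined exons (horizontal axis) of each measured gene of 9 lists, with Prkdc and the other 8 genes of the study set in red, a bar at each list's median, and open symbols for genes with 0 reads. The medians are 0.329 for the T cell receptor list, 0.469 for other T lineage genes, 0.182 for the B cell receptor list, 0.185 for other B lineage genes and 0.0541 for pro-B and pre-B genes, against 1.14 for natural killer, 1.65 for dendritic and 16.0 for pan-leukocyte and myeloid markers.

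All 10 dendritic cell markers passed the filter, and their summed level was 77.4, 129.5 and 133.2 CPM in Tsc1-null EV lungs, against 132.9, 128.6 and 130.7 CPM in WT EV lungs. Tsc1-null EV replicate 1, the lowest of these, was also the lowest for Cd4. The same library was lowest for Lyz2 of the myeloid list and Pecam1 of the lung tissue list, and highest for Vpreb3. The part of dendritic cells in the Cd4 level was not tested. Clec9a, a receptor of the dendritic cells that in mice can carry CD8A, averaged 24.1 ± 10.9 CPM in Tsc1-null EV and 38.6 ± 6.12 CPM in WT EV lungs. Siglech, a receptor of plasmacytoid dendritic cells, averaged 2.90 ± 0.374 CPM in Tsc1-null EV and 2.98 ± 0.630 CPM in WT EV lungs. Median log2 folds were -0.0028 for dendritic, -0.07 for plasmacytoid dendritic, -0.35 for type 2 innate lymphoid and 0.16 for pan-leukocyte and myeloid markers, and -0.12 for lung tissue markers, with 0 genes called in any of these lists. Of the type 2 innate lymphoid markers Il13 had 2 reads and Il5 6, and Il17rb was at 0 in Tsc1-null EV replicate 1, as were Ly6d and Pacsin1 of the plasmacytoid list. The summed level of the type 2 innate lymphoid list was 130.7, 125.1 and 129.0 CPM in Tsc1-null EV lungs, against 187.1, 171.1 and 168.4 CPM in WT EV lungs, without overlap. Rora was the largest part of this sum in every library. Of the 5 genes of the list that were tested 4 had a log2 fold below 0, and Il1rl1 was at 0.21. The plasma cell sum did not overlap either, at 451.9 to 526.2 CPM in Tsc1-null EV and 364.8 to 450.2 CPM in WT EV lungs. Sdc1, which epithelial cells also express, and Xbp1 were the largest parts of it in every library. Of the 4 tested genes of the plasma cell list, Sdc1 alone had a log2 fold above 0, and the other 3 were below 0. No sum was tested. Rora, Gata3 and Hs3st1 of the type 2 innate lymphoid list, Xcr1 of the dendritic list and Bst2 of the plasmacytoid list were lower in all 3 Tsc1-null EV lungs, as were 6.22% of all genes in the fit. Rora, a transcription factor many cells make, averaged 73.7 ± 5.94 CPM in Tsc1-null EV and 103.9 ± 1.11 CPM in WT EV lungs (limma adjusted p = 0.721).

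Between the groups, none of the 9 genes passed. Across all 14159 genes with a mean of at least 1 CPM, limma at the threshold of 0.05 called 0, or 0%, after adjustment and 930 (6.57%) before it. edgeR on recovered reads called 0 as well (966 unadjusted) and DESeq2 called 14 (949 unadjusted). DESeq2 left each of the 9 genes without an adjusted p, and its unadjusted p was lowest for Cd79a, at 0.141. Of the 9 genes 4 passed the filter. Cd4 averaged 4.71 ± 1.59 CPM in Tsc1-null EV and 4.53 ± 0.317 CPM in WT EV lungs (log2 fold 0.01 ± 0.26, limma adjusted p = 0.998). Cd79b averaged 4.12 ± 1.27 CPM in Tsc1-null EV and 3.61 ± 0.511 CPM in WT EV lungs (log2 fold 0.13 ± 0.25, limma adjusted p = 0.941). Cd3g averaged 0.907 ± 0.545 CPM in Tsc1-null EV and 1.24 ± 0.314 CPM in WT EV lungs (log2 fold -0.27 ± 0.31, limma adjusted p = 0.886).

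The other 5 genes had means under 1 CPM and were read from the fit without a filter, in which 0 of 18443 genes passed (1130, or 6.13%, unadjusted). Besides Cd79a, their log2 folds were 0.17 ± 0.39 for Cd3d, 0.08 ± 0.22 for Cd3e, -0.08 ± 0.13 for Cd8a and -0.06 ± 0.09 for Ms4a1 (SE), and none passed. Cd3d turned to -0.31 without Tsc1-null EV replicate 1. Counting alone left wide ranges for the rarest genes, with a depth-scaled read ratio of 1.27 (exact 95% interval 0.581 to 2.84) for Cd3d, 1.46 (0.547 to 4.11) for Cd3e and 0.874 (0.314 to 2.39) for Cd8a. For Cd4 and Cd79b it was 1.08 (0.824 to 1.42) and 1.17 (0.865 to 1.58). Even by counting alone, differences between the groups within these ranges were not detectable at this depth. The ranges pool the reads of each group and leave out the spread between mice, so differences outside them are not excluded.

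**Figure D4:**
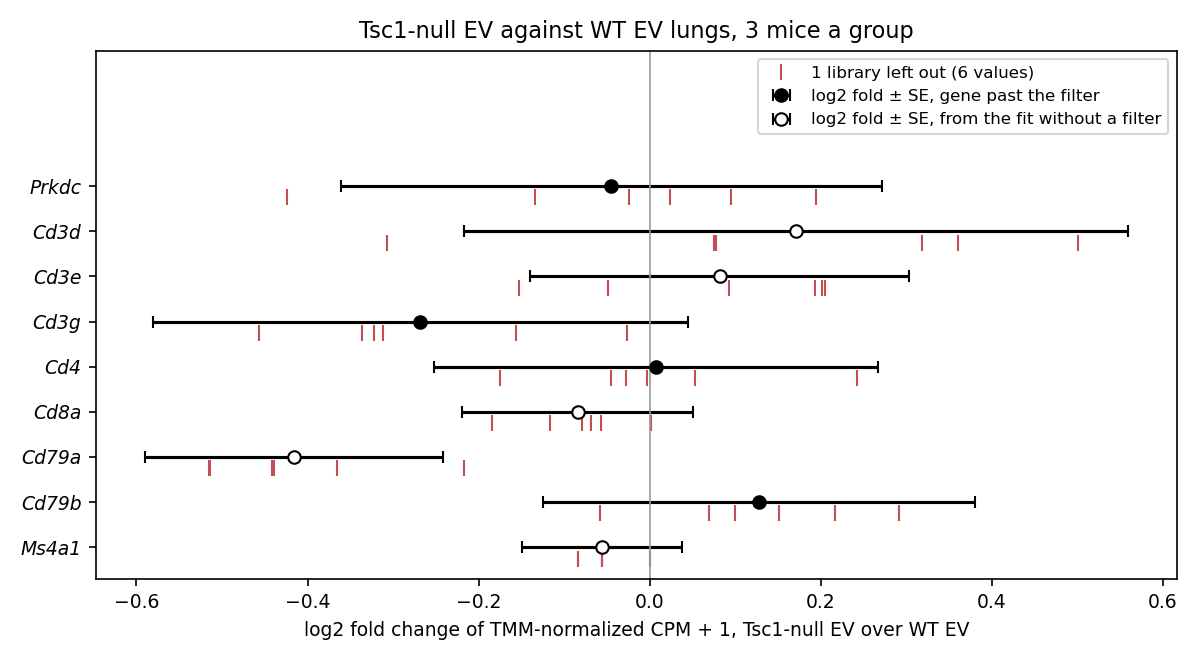
Log2 fold of TMM-normalized CPM + 1, Tsc1-null EV over WT EV (horizontal axis), of each of the 9 genes with its standard error, filled where the gene passed the filter on low values and open where it was read from the fit without a filter. Red ticks are the folds with 1 library left out. The bars cross 0 for every gene but Cd79a, at -0.42 ± 0.17, which did not pass the test.

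The genes nearest in pattern were sought over the 6 libraries for the 4 genes that passed the filter, by the root mean square difference of log2 values centred on each gene's mean, among genes of at least 5 CPM. Tmem163 and Wdfy4 lay nearest to Cd4, at 0.04 and 0.06 on the log2 scale. Tmem163 stood at 15.8, 30.3 and 23.4 CPM in Tsc1-null EV lungs, against 23.3, 20.4 and 20.98 CPM in WT EV lungs. For Cd79b they were 3632451O06Rik and Prmt1, at 0.05 and 0.06. For Cd3g they were Arhgap26 and Zkscan8, at 0.11 and 0.12, and for Prkdc they were Rpl36 and Ubox5, at 0.15 each. Of 11697 genes searched, 1578 lay within 0.2 of Cd4, 1447 within 0.2 of Cd79b and 95 within 0.2 of Cd3g, and 29 of 11696 lay within 0.2 of Prkdc.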

How the data were processed

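The deposited table holds a TMM-normalized signal per gene and library, taken as CPM on a linear scale. Bowtie2 2.1.0, RSEM 1.2.15, edgeR and mm10 are named, without roles, per the submitters' processing notes; no source used here gives the annotation, filters or strand. Dividing each column by its smallest step gave whole reads for 100% of values (tolerance 0.001). Libraries of a group differed by more than sampling noise (chi-square per degree of freedom 9.21 to 58.6), and each was taken as 1 mouse. The labels name no litters, cages or days, so p-values measure only the spread between these samples.

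Groups came from the treatment label. Genes with a mean of at least 1 CPM (14159) were compared on log2(value + 1) by a two-sided limma fit with intensity trend (version 3.58.1, R 4.3.3; Benjamini-Hochberg over all genes, threshold 0.05); folds on this scale understate those of low genes. edgeR 4.0.16 and DESeq2 1.42.0 on recovered reads, other pseudocounts, filters, scaling, sample weights and left-out libraries were alternatives. The steps were tested on simulated data. Lengths, overlaps, 50-base words and coding sequences came from GENCODE M21 (GRCm38); 98.4% of rows had a length. Of each of 13 lists, the genes named could be up to 4 with the smallest p, up to 4 with the highest mean and those at 0; further genes with 20 reads or fewer, and Lat, Skap1, Icos, Lck, Zap70, Fcrla, Il17rb, Spib and the innate lymphoid sum, were named after their values were seen. Genes and lists were chosen with earlier results of these data known. Some items are not reported here.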

Additional observations from a re-analysis of the deposited data

How the results depend on the processing

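The count of genes called was 0 in limma as reported and under 2 other pseudocounts, common median scaling, no trend, no filter, a filter at 5 and edgeR. It was 1050 with sample weights, 14 with DESeq2, 25 without both libraries that stood apart and 0 to 2 with 1 library left out. DESeq2 gave none of the 9 genes an adjusted p; under the other alternatives none of the 9 passed, the closest being Cd3g with sample weights (log2 fold -0.77, limma adjusted p = 0.0563; 0.0563 to 0.997 over its alternatives). With 1 library left out, folds ranged from -0.42 to 0.19 for Prkdc, -0.31 to 0.50 for Cd3d, -0.15 to 0.21 for Cd3e, -0.17 to 0.24 for Cd4, -0.18 to 0.0012 for Cd8a and -0.0578 to 0.29 for Cd79b, so each of these signs turned in at least 1 case. Cd3g and Cd79a stayed below 0, at -0.46 to -0.03 and -0.52 to -0.22. Without both libraries that stood apart the fold was 0.26 for Prkdc, -0.12 for Cd3d and 0.0056 for Cd8a, and Cd4 was at -0.0011 with a pseudocount of 0.1. Per kb of mean transcript length Cd4, at 3.52, stood above Cd79b, at 2.95 CPM per kb. For Cd3d, Cd3e, Cd8a, Cd79a and Ms4a1, 30 reads or fewer over the 6 libraries stand behind each value. The median log2 folds of the lists were also followed over these alternatives. They moved by more than the within-group SD of the list's mean log2 level in 15 cases, and not in 192.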
